A study of Drosophila melanogaster with 16 samples.

Results

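Heads of female flies given pentylenetetrazole (PTZ) in their food for 2 days were compared with heads of flies kept for the same time on normal food (NF), on 4 of the 16 arrays of the series, those whose titles give the 2nd day of NF against PTZ in females. All flies were 3 to 4 day old virgins of the wild-type Oregon-R stock when treatment began, housed at 30 flies per vial; the titles and treatment texts give females, while a sentence of the growth text speaks of males. The treated groups received PTZ at 8 mg/ml in NF and the control groups NF alone, and RNA came from pools of whole heads, so that eye, brain, fat body and other head tissues were mixed. The other 12 arrays, 4 each at 12 hrs, on the 7th day and on the 14th day (after withdrawal of PTZ), enter only where a value of the 2nd day was set against them.

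PTZ blocks the chloride channel of GABA receptors and is used in rodents as a convulsant. The head of the fly holds a fat body around the brain, a tissue that stores triglyceride and glycogen and secretes lipid carriers, storage proteins and peptides into the haemolymph. Stored fat is released by the lipase Brummer and by lipases under adipokinetic hormone, and the fatty acids are burned after transfer to carnitine.

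Each array compared 1 PTZ pool with 1 NF pool on cDNA spots printed in side-by-side duplicates, and its values are log2 ratios of Cy5 over Cy3. PTZ was in Cy5 in replicates 1 and 2 and in Cy3 in replicates 3 and 4. The 4 arrays held a value for 10169, 15046, 10958 and 11617 spots out of 27648. The array median was subtracted and replicates 3 and 4 were turned, so that every value below is log2 PTZ over NF: a value of -1 stands for a halved ratio and 0 for the level of the median gene. The direction rests on the dyes given in the labels. Of 5 genes or spot pairs beyond 1 log2 unit on all 4 arrays, 3 had 1 sign throughout after turning and 0 without it. At a size of 0.5 the numbers were 9 and 7 of 43, and at 0.3 they were 24 and 55 of 146. Turning replicates 1 and 2 instead would give the same numbers, so they do not bear on the direction. Genes (or pairs of unnamed spots) with a value on at least 3 arrays numbered 5415, of which 2850 were named genes. The labels describe the replicates as separate sets of vials and head pools.

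After 2 days of PTZ few genes stood apart from 0. With limma and Benjamini-Hochberg adjustment over the 5415 features, 11 were called lower at an adjusted p under 0.19 (0.203% of those tested) and 1 higher (0.0185%). The threshold was the highest false discovery rate used in the study. An unadjusted p under 0.05 was reached by 167 lower (3.08%) and 95 higher features (1.75%). Every measured array lay below 0 for 7.24% of features and above 0 for 6.5%, so that 1 sign on all arrays is in itself common. The 11 comprised 7 named genes, CROT, fit, CG5707, CG4757, CG8654, AkhR and CG3036, and 4 unnamed spot pairs, and the 1 higher feature was an unnamed pair with a mean of 1.34. The means of all features lay close to 0, with quartiles of -0.06 and 0.06 and a median SD between arrays of 0.18.

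Of 15 genes measured in the list of fatty acid oxidation and the carnitine shuttle, CROT fell. Of 18 in the list of lipid storage and mobilisation, AkhR and CG4757 fell, beside 7 of 2850 named genes. The lists were not tested. They were chosen with earlier results of these data known, so the numbers called and the shares below 0 within them, here and below, are no result. CROT (chromosome arm 3R) encodes carnitine O-octanoyltransferase, which moves medium-chain acyl groups onto carnitine. Its values were -1.05, -1.002, -1.08 and -1.21 in replicates 1 to 4. All 4 arrays were thus within a narrow band and far from 0, whichever dye carried PTZ. The mean of -1.08 (SD 0.09, n = 4) is a 2.12-fold lower level, with a limma adjusted p of 0.0346. Of 4 spot rows for CROT, 2 had values, with means of -1.10 and -1.07.

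AkhR (2L), the receptor through which adipokinetic hormone acts on fat body, had -0.58, -0.63, -0.44 and -0.49. The fall was smaller than that of CROT but about as even between arrays, and its mean was -0.54 (SD 0.08, n = 4, limma adjusted p = 0.146). CG4757 (3R), of the carboxylesterase family, had -1.01, -0.61, -0.87 and -0.99. Replicate 2 was the highest of these, and the mean was -0.87 (SD 0.18, n = 4, limma adjusted p = 0.122).

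**Figure D1:**
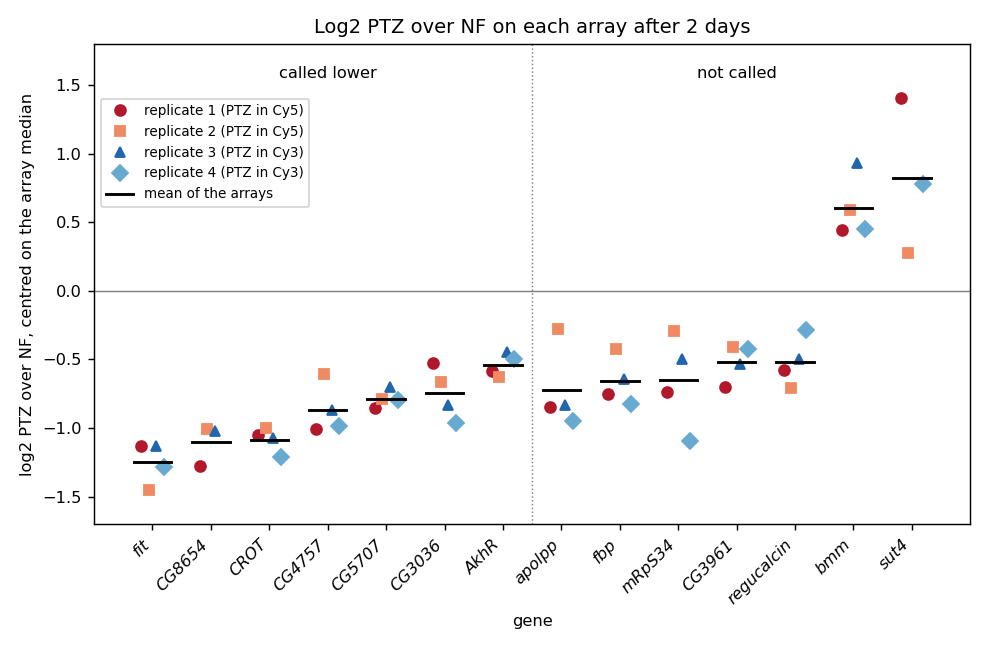
Log2 PTZ over NF (vertical axis, centred on the array median) on each of the 4 arrays of the 2nd day for 14 genes; symbols give the replicate and its dye, black bars the mean of the arrays with a value. The 7 genes left of the dotted line passed the test and lie below -0.44 on every array; the genes to its right did not pass.

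Other enzymes of fatty acid oxidation and the carnitine shuttle had smaller means. Of 15 members measured, 1 was called lower, 11 (73.3%) had means under 0 and the list's median was -0.09, beside 47.8% and 0.00 for all features. CG3961, an acyl-CoA synthetase by its synonyms, had -0.70, -0.41, -0.53 and -0.43 (mean -0.52, SD 0.13, limma adjusted p = 0.297). All 4 arrays were below 0, and the adjusted p was above the threshold. CRAT (carnitine acetyltransferase) had -0.22, -0.63, -0.20 and -0.21, so that 3 arrays lay together and replicate 2 was lower. scu, a mitochondrial hydroxyacyl-CoA dehydrogenase, had a mean of -0.31 (SD 0.22) with all 4 arrays below 0. Chosen after their values were seen, colt, the inner-membrane carnitine carrier, had a mean of -0.31 with replicate 2 above 0, and whd, the carnitine palmitoyltransferase of the outer membrane, had -0.12, -0.36, 0.12 and -0.02. The latter values lay on both sides of 0.

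Among 18 genes of lipid storage and mobilisation, 2 were called lower (CG4757 and AkhR) and 0 higher, around a median of -0.05, beside 0.203% called lower and a median of 0.00 over all features. bmm, which encodes the triglyceride lipase Brummer, had values of 0.44, 0.59, 0.93 and 0.45. It was above 0 on every array, with a mean of 0.60 (SD 0.23, n = 4), but its limma adjusted p of 0.373 did not pass. bmm and AkhR, which act in the 2 routes of fat release, thus had means on opposite sides of 0. Gpdh1 (cytosolic glycerol-3-phosphate dehydrogenase) was measured on 3 arrays, at -0.15 in replicate 2, -0.67 in replicate 3 and -0.999 in replicate 4. The 1 array with PTZ in Cy5 was the highest of the 3, and the adjusted p was 0.83. Desat1, the delta-9 acyl desaturase, had 0.87, 0.11 and 0.12 in replicates 2 to 4, a mean of 0.36 carried by replicate 2. Pect, of phosphatidylethanolamine synthesis, had 0.17, 0.17, 0.20 and 0.42 (mean 0.24, adjusted p = 0.739).

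In the list of fat body secreted and carrier proteins, fit fell. fit (3R), a female-enriched gene of the fat body around the brain whose secreted product is known as a satiety signal, had -1.13, -1.45, -1.13 and -1.29. Every array was more than 1 log2 unit below 0. The mean of -1.25 (SD 0.15, n = 4) corresponds to a 2.38-fold lower level (limma adjusted p = 0.0346), and its duplicate spots gave -1.29 and -1.21. apolpp, on chromosome 4, encodes the protein of lipophorin, the main lipid carrier of the haemolymph. Its values were -0.85, -0.27, -0.83 and -0.95, with replicate 2 well above the other 3 arrays (mean -0.73, SD 0.30, adjusted p = 0.414). Its adjusted p was 0.102 without replicate 2 and 1, 0.835 and 0.998 without replicates 1, 3 and 4. regucalcin, of calcium homeostasis, had -0.57, -0.71, -0.49 and -0.28 (mean -0.52, SD 0.18, adjusted p = 0.373).

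Of the 17 genes in the list of fat body secreted and carrier proteins, 1 was called lower (fit) and 0 higher; 13 (76.5%) had means under 0, around a median of -0.15, beside 0.203% called lower and 47.8% under 0 over all features. The list's median on single arrays was 0.06 and -0.03 with PTZ in Cy5 and -0.30 and -0.43 with PTZ in Cy3, so the level below 0 was seen in 1 dye orientation and hardly in the other. Yp3 (yolk protein 3) shows the same split, at -0.20 and 0.30 with PTZ in Cy5 and at -1.18 and -1.63 with PTZ in Cy3. Its mean of -0.68 (SD 0.88) did not pass (adjusted p = 1). Obp56d, an odorant-binding protein, had a mean of -0.27 with all arrays below 0 (adjusted p = 0.746). The list also holds Obp19d, Obp44a, Obp56e and Obp99c, further odorant-binding proteins, so its counts and median do not stand for fat body alone. Its members below 0 numbered 11 of 16 at 12 hrs (median -0.09), 13 of 17 on the 7th day (-0.15) and 6 of 17 on the 14th day (0.05). The RNA of whole heads does not tell fewer fat body cells from less RNA per cell.

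A pair of transporter genes fell. CG8654 (2R), of the organic ion transporter family, was measured in replicates 1 to 3 at -1.28, -1.01 and -1.02. The mean of -1.10 (SD 0.15, n = 3, limma adjusted p = 0.146) is a 2.14-fold lower level, and with a dye term the adjusted p was 0.196. CG3036 (2L), of the sodium-dependent anion transporter family, had -0.53, -0.66, -0.83 and -0.96. The arrays with PTZ in Cy3 were lower than those with PTZ in Cy5, and all 4 lay well below 0 (mean -0.75, SD 0.19, n = 4, limma adjusted p = 0.146). The list of sugar digestion and transport, in which both were placed, had 12 measured genes. Of these, 2 were called lower, 0 higher and 6 had means under 0, around a median of 0.02. Over all features 0.203% were called lower and 47.8% lay under 0. The 2 called are CG8654 and CG3036 themselves, placed there with earlier results of these data known, so their share is no result. sut4, a sugar transporter, had the highest mean of all named genes tested, but its 3 values of 1.41, 0.28 and 0.78 were widely spread (mean 0.82, SD 0.57, adjusted p = 0.783). The gut maltases Mal-A2 and Mal-A3 had means of 0.21 and 0.30, above 0 on every array that measured them (adjusted p = 0.842 and 0.787). CG5707 (3L), the remaining named gene that fell, had -0.85, -0.79, -0.70 and -0.80 (mean -0.78, SD 0.06, n = 4, limma adjusted p = 0.0455).

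Of 13 genes of gluconeogenesis and glycolysis, 0 were called and the median was -0.05, beside 0.203% called lower and a median of 0.00 over all features. The list's median on single arrays was 0.10 and 0.11 with PTZ in Cy5 and -0.13 and -0.29 with PTZ in Cy3. At an unadjusted p under 0.05 there were 2 lower and 0 higher, beside 3.08% and 1.75% of all features. The 2 lower genes encode enzymes that serve gluconeogenesis. fbp, fructose-1,6-bisphosphatase, had -0.75, -0.42, -0.64 and -0.82. With a mean of -0.66 (SD 0.18) it came nearest to the threshold among these genes (limma adjusted p = 0.202, and 0.196 with a dye term). By SAM at a false discovery rate of 0.16 it was called lower, as were CG3961 and mRpS30. PCB, pyruvate carboxylase, had -0.50, -0.60, -0.09 and -0.21 (mean -0.35, adjusted p = 0.739), being lower where PTZ was in Cy5. Genes of glycolysis proper had means near 0: Tpi at -0.14 (SD 0.24) and Hex-A at 0.14 (SD 0.13, n = 3). The genes dnc, Pepck1, Men and to were not among the rows named here.

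The 14 measured genes of the secretory pathway and endoplasmic reticulum had 12 means below 0 (85.7%, beside 47.8% of all features). None was called, beside 0.203% of all features called lower, and the median was -0.13. At 12 hrs 13 of 15 members had means below 0 (median -0.15), so this was not particular to the 2nd day. On the 7th day it was 12 of 20 (-0.08) and on the 14th day 9 of 19 (0.04). Sec61gamma and Sec61beta encode subunits of the translocon, the channel through which secreted proteins enter the endoplasmic reticulum. Sec61gamma had -0.27, -0.48, -0.38 and -0.27 (mean -0.35, SD 0.10, adjusted p = 0.495). Sec61beta had -0.25, -0.34, -0.23 and -0.38 (mean -0.30, SD 0.07, adjusted p = 0.563). Both were small but below 0 on all 4 arrays. Fkbp14, a peptidyl-prolyl isomerase, had a mean of -0.39 (SD 0.20) and prtp, a protein disulphide isomerase family member, -0.20 (SD 0.21). The median of the list on single arrays ran from -0.20 to -0.10, with no array above 0. This list too was chosen with earlier results of these data known, so its share below 0 is no result.

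**Figure D2:**
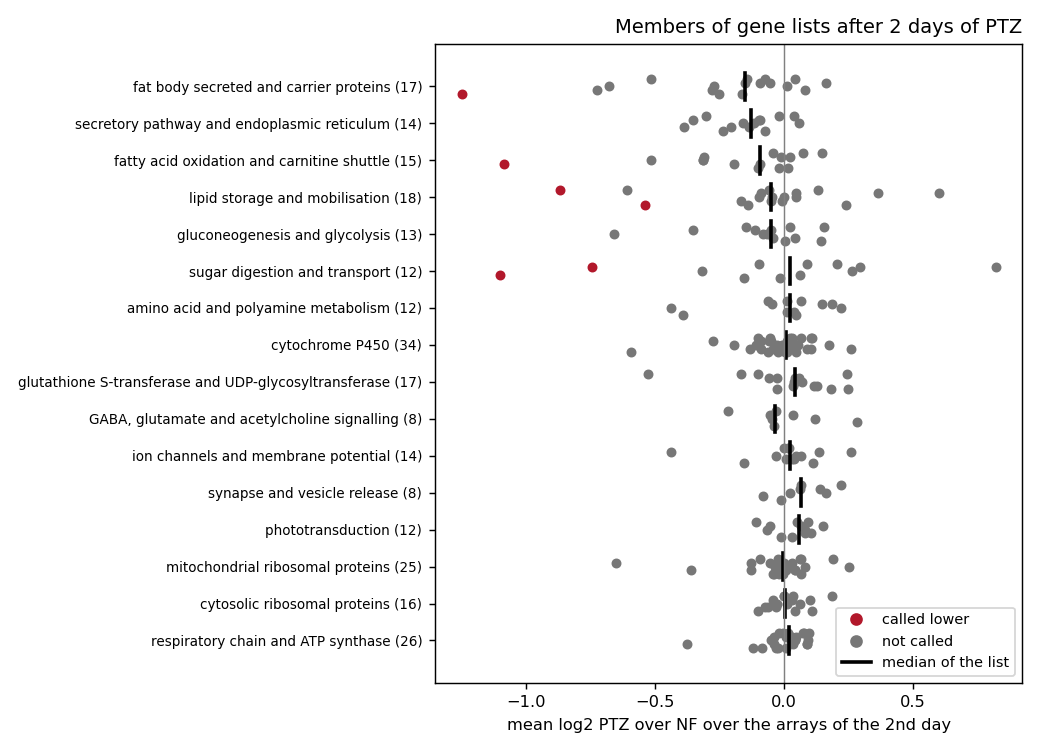
Mean log2 PTZ over NF (horizontal axis) of each measured member of 16 gene lists on the 2nd day, 1 point per gene, with the number measured in brackets and the list's median as a black bar. The genes called lower (red) are fit, CROT, CG4757, AkhR, CG8654 and CG3036; the medians lie between -0.15 and 0.06.

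The measured genes of neuronal signalling had list medians near 0, but most genes of these lists were not measured. For GABA, glutamate and acetylcholine signalling, 8 of 39 listed genes were measured (19 were named on the array). Rdl and Grd, listed with the GABA receptor genes, were not among the 8, of which 0 were called (median -0.04). Of 14 ion channel genes measured (of 42 listed) 0 were called (median 0.03). Of 8 genes of synapse and vesicle release (of 36 listed) 0 were called (median 0.06). With 0.203% of all features called lower and 0.0185% higher, 0 calls in lists this small is no result. Gad1, which makes GABA, had 0.09, 0.12, -0.43 and 0.04, and Lcch3, a subunit related to the GABA receptor, had -0.28, 0.06, 0.24 and 0.12; both were chosen after their values were seen. Neither had 1 sign on all arrays. Gs2, glutamine synthetase, split by dye (0.06 and 0.12 against -0.63 and -0.41), as did GluClalpha, the glutamate-gated chloride channel, with a mean of 0.28 (0.13 and -0.05 against 0.60 and 0.47). Ork1, an open rectifier potassium channel, had -0.53, -0.77, -0.25 and -0.21. It was below 0 on every array, with a mean of -0.44 (SD 0.26, adjusted p = 0.659). Nckx30C, a sodium-calcium exchanger, had 0.15, 0.14, 0.46 and 0.14, and RyR, the ryanodine receptor of calcium stores, had 0.20, 0.67 and 0.43 in replicates 2 to 4 (adjusted p = 0.725). Over these 3 lists, at an unadjusted p under 0.05, Ork1 was lower and Nckx30C higher. Of all features 3.08% were lower and 1.75% higher at that p, so this is no result about these lists.

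Detoxification and housekeeping genes were not called. Over all features 0.203% were called lower and 0.0185% higher, so 0 calls in lists of this size is no result. Among 34 cytochrome P450 genes the median was 0.01 and among 17 glutathione S-transferases, UDP-glycosyltransferases and other detoxification enzymes 0.04. The P450 gene with the lowest mean, Cyp313a1 at -0.59, was split by dye, with -0.28 and 0.05 against -1.11 and -1.02. GstD1 had 0.38, 0.25, 0.37 and -0.03 (mean 0.24, adjusted p = 1), and the esterase alpha-Est2 -0.59, -0.21 and -0.78 (adjusted p = 0.713). Medians were 0.01 for 16 cytosolic ribosomal proteins, 0.00 for 25 mitochondrial ribosomal proteins and 0.02 for 26 subunits of the respiratory chain and ATP synthase. They were 0.02 for 16 proteasome subunits and 0.00 for 23 translation factors and aminoacyl-tRNA synthetases. Some of these medians hid a split by dye. On single arrays the cytosolic ribosomal list had medians of 0.17 and 0.17 with PTZ in Cy5 and -0.11 and -0.15 with PTZ in Cy3. The respiratory chain list had 0.10 and 0.13 against -0.03 and -0.11. The mitochondrial ribosomal list showed no such split (-0.019 to -0.002). mRpS34 stood apart in its list with -0.73, -0.29, -0.49 and -1.09 (mean -0.65, SD 0.34, adjusted p = 0.563). All arrays were below 0, with replicate 4 well below replicate 2. mRpS30 had -0.38, -0.32 and -0.38 on 3 arrays (adjusted p = 0.605), eRF3, a translation termination factor, a mean of -0.31 (SD 0.08, adjusted p = 0.563), and SpdS, spermidine synthase, -0.39 (SD 0.19, adjusted p = 0.605).

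No named gene rose past the threshold (0 of 2850 by limma, 40 at an unadjusted p under 0.05, and 0 features by SAM). Besides sut4, bmm, RyR and Desat1, the 10 largest means among named genes above 0 on every measured array were those of CG8745 at 0.52 (n = 3), Cyt-b5-r at 0.44, Loxl1 at 0.41, Sclp at 0.40, Prps at 0.33 and CG13901 at 0.31 (n = 3), with adjusted p from 0.512 to 1. Loxl1, a lysyl oxidase, had 0.51, 0.57, 0.31 and 0.25, and Prps, of nucleotide synthesis, 0.69, 0.14, 0.18 and 0.31. Cyt-b5-r had 0.52 and 1.21 with PTZ in Cy5 against 0.02 and 0.02. On the side of falls, the 10 largest held 6 of the 7 called genes (all but AkhR), fbp, apolpp, mRpS34 and CG3407, which had -0.78, -0.41, -0.48 and -0.95 (mean -0.65, adjusted p = 0.373). The drosomycin gene Drs, of the antifungal response, had -0.11, -0.67, -0.52 and -0.15 (adjusted p = 0.83).

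Dye moved with many values on these arrays. After turning, arrays of 1 dye orientation had Spearman correlations across genes of 0.32 (replicates 1 and 2) and 0.43 (replicates 3 and 4), and arrays of opposite orientation of -0.39 to -0.08; genes are not independent replicates, so no p is given. A dye effect passed an adjusted p under 0.19 for 199 features (3.67%). With a dye term in the fit, 13 features were called lower (0.24%) and 2 higher (0.0369%), of which 10 were also called without it. Among the 7 named genes, 6 passed with the dye term, at adjusted p of 0.0986 for CROT, 0.0998 for fit and CG5707, 0.117 for CG3036 and 0.162 for CG4757 and AkhR, and CG8654 did not. For all 7 the means of both orientations were below -0.46. The 7 were called on these same arrays by a test that favours a small spread, so this is no separate support.

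**Figure D3:**
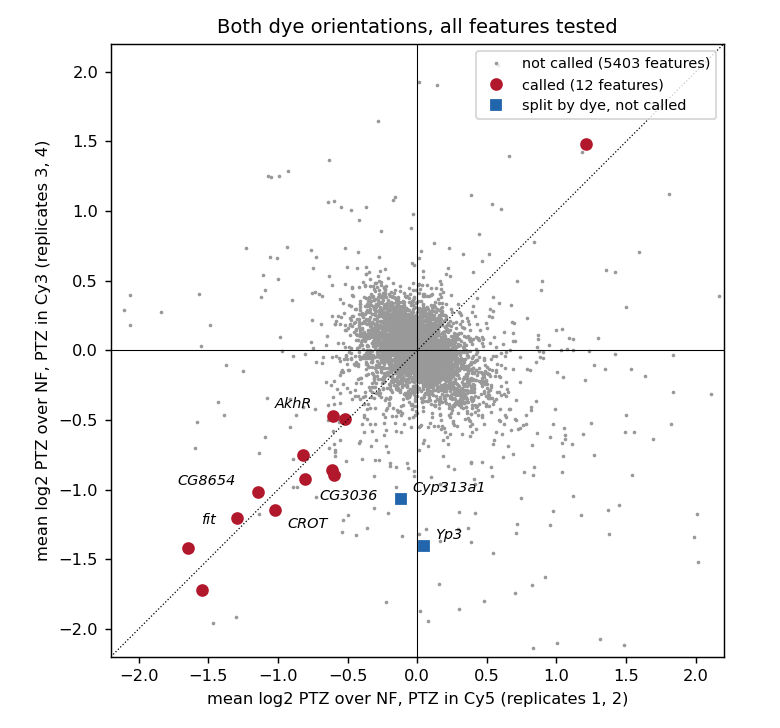
Mean log2 PTZ over NF of replicates 1 and 2 (horizontal, PTZ in Cy5) against that of replicates 3 and 4 (vertical, PTZ in Cy3) for 5415 features, of which 19 lie beyond the axes. The cloud runs from upper left to lower right, while the 12 called features (red) lie along the dotted line of equal values. They were called on these same arrays by a test that favours a small spread, so this place is no separate support. Yp3 and Cyp313a1 (blue) lie low in 1 orientation only.

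The values of the 2nd day were also set against those of the other times. Genes named for their size on the 2nd day were chosen on 1 side of each difference, so means nearer to 0 elsewhere are no result. Over the 8 arrays of each comparison, with limma, 1 of 4438 features was lower on the 2nd day than at 12 hrs (0.0225%), 2 of 3808 were lower than on the 14th day (0.0525%) and 1 of 4196 was higher than on the 7th day (0.0238%). fit was lower on the 2nd day than on the 14th day, by a difference of -1.67 log2 units (means -1.25 and 0.42, SE 0.19, adjusted p = 0.0478). At 12 hrs only 2 arrays measured fit, with a mean of -1.05, and on the 7th day 3 did, with a mean of -0.09 (SD 0.72); that difference of -1.16 did not pass (adjusted p = 0.734). CG3036 was also lower than on the 14th day, with a difference of -0.95 (means -0.75 and 0.20, SE 0.14, adjusted p = 0.182). For mRpS34 the difference from 12 hrs was -1.71 (means -0.65 and 1.06, SE 0.22, adjusted p = 0.142). It lay above 0 on all 4 arrays at 12 hrs and below 0 on all 4 on the 2nd day. With a dye term this call of mRpS34 was lost (adjusted p = 0.425), as it was without replicate 1 or 3 of the 2nd day or replicate 1 or 4 of 12 hrs (adjusted p of 0.204 to 0.686). The differences of fit and CG3036 passed with a dye term (adjusted p = 0.15 for both) but not in the deposited values without centring (adjusted p = 1 for both). The call of fit was also lost without replicate 2 or 4 of the 2nd day or replicate 1 of the 14th day (adjusted p of 0.228 to 0.257), and that of CG3036 when any 1 of the 8 arrays was left out (adjusted p of 0.231 to 0.854).

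CROT had means of 0.26 at 12 hrs (SD 0.58, n = 4), -0.12 on the 7th day (SD 0.32, n = 3) and -0.06 on the 14th day (SD 0.36, n = 4). Its differences from the 2nd day were -1.34, -0.97 and -1.03, with adjusted p of 0.47, 0.371 and 0.483. CG5707 had means between 0.01 and 0.09 at the other times (differences -0.88, -0.87 and -0.80; adjusted p 0.48, 0.371 and 0.999). CG8654 had 0.61, -0.27 and -0.14, with differences of -1.71, -0.83 and -0.96 and adjusted p of 0.47, 0.371 and 0.999. apolpp had -0.50, -0.28 and 0.35 and Sec61gamma -0.40, -0.23 and 0.17, so that both were nearer to their 12 hrs level than to that of the 14th day. None of these differences passed the threshold. AkhR was measured on 3 arrays at 12 hrs (mean -0.25) and on none later, and bmm on at most 1 array at any other time. The 7th day includes replicate 4, whose title gives that day and whose treatment text describes withdrawal.

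**Figure D4:**
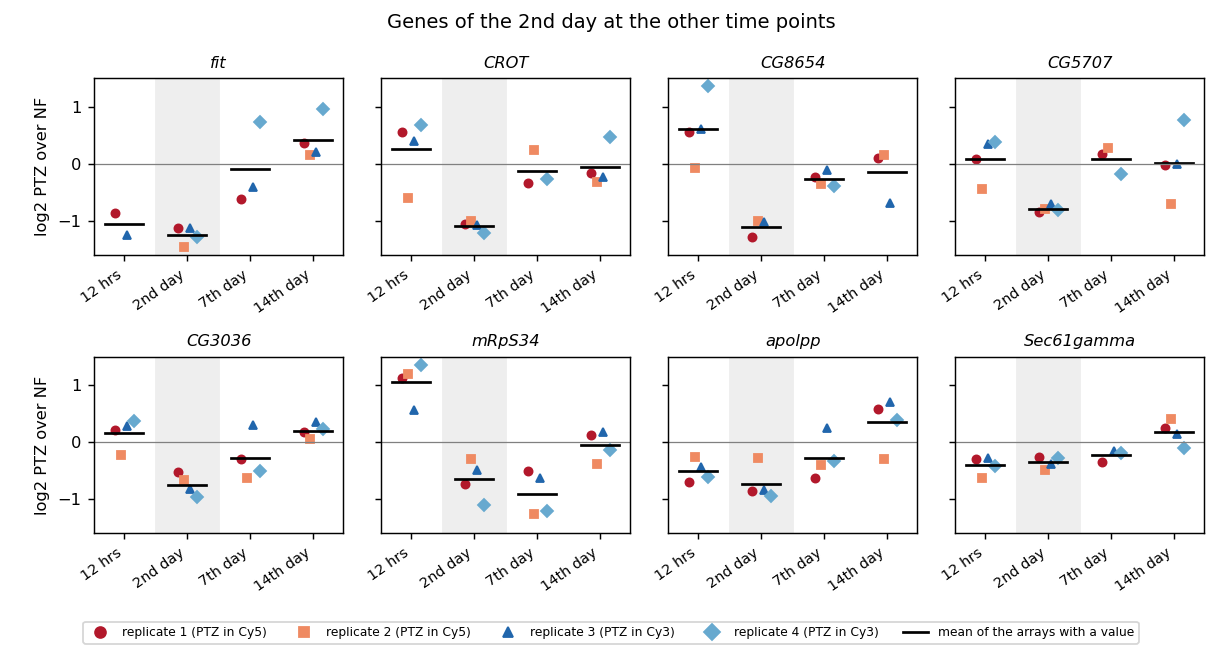
Log2 PTZ over NF (vertical axis) on each array at 12 hrs, the 2nd, 7th and 14th day for 8 genes; symbols give the replicate and its dye, black bars the mean of the arrays with a value, and the grey band the 2nd day. The arrays of the 2nd day lie together below 0 for fit, CROT, CG8654 and CG5707, genes that were chosen by their values on that day.

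Among markers of head tissues, the fat body list had 5 of 12 genes measured, 4 with a mean below 0. Its median of -0.68 was the mean of Yp3. All 5 also stand in the list of fat body secreted and carrier proteins, so they are no separate support. Of all features 47.8% had means below 0, around a median of 0.00. The marker list's median on single arrays was -0.57 and -0.27 with PTZ in Cy5 and -0.83 and -1.12 with PTZ in Cy3. In it, fit, apolpp and regucalcin were below 0 on every array and Yp3 was split by dye. Lsp2 had a mean of 0.08, with 0.28 where PTZ was in Cy5 and -0.32 where it was in Cy3. The glial list had 2 of 8, of which alrm, an astrocyte gene, had -0.42, -0.48, -0.32 and -0.26 (adjusted p = 0.44). Muscle markers had 5 of 15 (median 0.11), ovary and germline 3 of 14 (median 0.00), digestive tract 2 of 17, photoreceptors, neurons and haemocytes 1 each, and the male reproductive tract 0 of 13. A ratio gives no level of a tissue, and the part of head composition in the results was not tested. Calls were lost when 1 array was left out: without replicate 3 or without replicate 4 limma called 0 features lower (152 and 110 at an unadjusted p under 0.05). Without replicate 1 it called 3 and without replicate 2 it called 9. Leaving 1 out also leaves only 3 arrays, with the dye orientations out of balance. A lost call can therefore not be traced to the array left out alone. Those of the 7 named genes that still had 3 arrays stayed below 0 in each case (CG8654 had 3 only without replicate 4). Each of these genes was below 0 on every measured array, so leaving 1 out could not change the sign.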

How the data were processed

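RNA of PTZ and NF heads was compared on 2-colour cDNA arrays. Slides were scanned and ratios normalized by the authors with GenePix Pro and Acuity, and spots that were weak, saturated, flagged or uneven were taken out; the deposited values are log2 ratios of Cy5 over Cy3, and their centring and the genome build are not given in the sources used here. Intensities were not analysed here, so only the number of arrays and the spread between them show the precision.

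Rows were named through the platform annotation and a Release 6 gene table, used for names and chromosomes (15116 rows name 1 gene, 12430 none). Values of 16.6 or more (26 on these arrays) were set missing. Rows of 1 gene were averaged, unnamed neighbours averaged as a pair, each array centred on its median and replicates 3 and 4 turned. With R 4.3.3 and limma 3.58.1, each mean over at least 3 arrays was tested against 0 by lmFit and eBayes, with Benjamini-Hochberg adjustment and a threshold of 0.19, with and without a dye term, and against other times over 8 arrays. Scripts were tested on simulated data. SAM used all 16 sign changes.

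The genes and lists were chosen with earlier results of these data known. Named were genes called in either fit, the 10 largest falls and 10 largest rises among genes of 1 sign throughout, at most 4 genes of smallest p in each list, and dnc, Pepck1, fbp, Men, Gpdh1, Yp3, to, bmm, Sec61beta, Sec61gamma, Ork1, SpdS and mRpS34. Lists are described by counts and medians, with no test. P-values measure the spread between these 4 arrays.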

Additional observations from a re-analysis of the deposited data

Results flagged for a closer look

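In 5 of 48 genes checked with values on all 4 arrays, 1 array lay far from the other 3 by Dixon's limit of 0.829; chance alone gives this in about 1 group in 20. They were apolpp, where replicate 2 had -0.27, CRAT, where replicate 2 had -0.63, Nckx30C, where replicate 3 had 0.46, Pect, where replicate 4 had 0.42, and Gad1, where replicate 3 had -0.43. The signs of the means of apolpp, CRAT, Nckx30C and Pect were the same without that array, while Gad1 turned from -0.04 to 0.08.

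Differences from another time passed the limma test for 3 genes and 1 unnamed spot pair. mRpS34 was lower than at 12 hrs by a difference of -1.71, fit lower than on the 14th day by -1.67, and CG3036 lower than on the 14th day by -0.95. The unnamed pair was higher on the 2nd day than on the 7th day by 1.36 (means 0.00 and -1.35, adjusted p = 0.138).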

How the results depend on the processing

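The main counts on the 2nd day were 11 lower and 1 higher. They became 11 and 2 centred on the mean ratio, 4 and 0 at an adjusted p under 0.05 or under 0.1, 10 and 2 with single rows, 13 and 2 with the dye term, and 19 and 0 by SAM. Leaving out 1 replicate gave 0 to 9 lower and 0 to 1 higher. Trend and robust eBayes together called 0 and 0 (72 and 1 at an unadjusted p under 0.05); its trend runs over the mean ratio, since no intensity was used. Robust eBayes without the trend, added after the data were seen, called all 7 named genes. Under each alternative other than leaving replicates 3 and 4 unturned, the named genes with a value were below 0 (all 7, or the 6 besides CG8654 when 4 arrays were needed or replicate 1, 2 or 3 was left out). These genes were below 0 on every measured array, so their signs were largely fixed in advance and are no support for the calls. Of the 7, 0 were still called with trend and robust eBayes, without replicate 3 or without replicate 4. Without replicate 1 the number still called was 2, and without replicate 2 it was 4. With the dye term (13 and 2), values as deposited gave 20 lower, adjusted p limits of 0.05, 0.1 and 0.16 gave 0 and 0, 4 and 0, and 7 and 1, single rows 23 and 9, trend and robust eBayes 0 and 0, and leaving out 1 replicate 7 to 44 lower and 3 to 15 higher.

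Replicate numbers are shared between times, but same-numbered arrays share dye orientation and their deviations correlated between -0.08 and 0.20, so the numbers were not taken as pairs. A fit of all 16 arrays called 6 lower without the replicate block, and 6 lower and 0 higher with the replicate block. The differences from 12 hrs, the 7th day and the 14th day (1, 1 and 2 calls) gave 0, 0 and 0 with the replicate block (146, 231 and 114 at an unadjusted p under 0.05). With a dye term the difference from 12 hrs gave 0 (256 at an unadjusted p under 0.05). As deposited, the 7th day gave 26 and the 14th day 1. Leaving out 1 array gave 0 to 5, 0 to 5 and 0 to 3 calls.

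Without turning replicates 3 and 4, when dye effects add up and PTZ effects cancel, 180 features were lower and 246 higher. Means that then changed sign were CROT 0.059, CG4757 0.060, CG3036 0.15, fbp 0.072, apolpp 0.16, CG3407 0.0605, mRpS34 0.14, scu 0.10, colt 0.22, Gpdh1 0.51, Tpi 0.12, Obp56d 0.073, Yp3 0.73, Sec61beta 0.0071, prtp 0.12, SpdS 0.03, Cyp313a1 0.48, Gs2 0.30, Gad1 0.15, bmm -0.0885, RyR -0.30, Nckx30C -0.078, Pect -0.068, GluClalpha -0.25, Lcch3 -0.15 and Mal-A2 -0.072. Among the other alternatives, only the means of Gad1 (-0.099 to 0.082 leaving out 1 replicate) and Lcch3 (-0.0071 with single rows, -0.032 to 0.14 leaving out 1 replicate) changed sign.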

Other observations

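Amino acid and nucleotide enzymes gave means on both sides of 0, with 0 of 12 called, beside 0.203% called lower and 0.0185% higher over all features. CG4306, of the gamma-glutamylcyclotransferase family, had -0.59, -0.66, -0.09 and -0.42 (mean -0.44, adjusted p = 0.659), and the other member below 0 at an unadjusted p under 0.05 was SpdS. Paics, of purine synthesis, had 0.26, 0.37, 0.16 and 0.10 (mean 0.22, adjusted p = 0.836), and P5cr-2, a pyrroline-5-carboxylate reductase, 0.32, 0.24, 0.12 and 0.06 (mean 0.19, adjusted p = 1). All 4 arrays of each lay on 1 side of 0, with the values above 0 larger where PTZ was in Cy5. CG4928 had a mean of -0.32 (SD 0.16, adjusted p = 0.659), and the mitochondrial ribosomal protein gene mRpS2 0.19 (SD 0.11, adjusted p = 1).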
